A study of Schizosaccharomyces pombe with 8 samples.

Results

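nmt1 and thi2 are the paired thiamine synthesis genes of the fission yeast Schizosaccharomyces pombe, and both carried peaks of the RNase III endonuclease Pac1 in the chromatin immunoprecipitation sequencing (ChIP-seq) data described here. The 2 genes were chosen by their presence in the deposited list of Pac1-associated genes, which holds 166 distinct genes. nmt1 was listed at 1 peak and thi2 at 2 peaks. Because that list decided their choice, their place in it is given as a description and was not tested.

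The list came from 2 immunoprecipitates of Pac1-TAP and the 2 matching inputs, 4 of the 8 libraries of the series. All 4 were made from strain FBY2277, of mating type h+, in which Pac1 was tagged (Pac1-TAP-natMX6) and which also carried the auxotrophic alleles ade6-M216, leu1-32 and ura4-D18 together with his3-D1. The inputs thus carried the tag too, and an untagged strain was not used. Cells grew at 30 °C in Edinburgh minimal medium (EMM) with adenine, uracil, histidine and leucine, and chromatin was fixed with 1% formaldehyde for 20 min. The labels name no construct with the nmt1 promoter in this strain, so its own locus is the one copy named.

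Thiamine (vitamin B1) is built from a pyrimidine and a thiazole that are made separately and then joined. Nmt1 makes the pyrimidine precursor and Thi2 the thiazole precursor. Both genes are known for strong transcription in medium without thiamine and for near-complete silence when thiamine is added ("no message in thiamine"), a property that made the nmt1 promoter a standard switch for gene expression in this yeast. Pac1 cleaves double-stranded RNA hairpins, and ChIP of the tagged protein reports where it was crosslinked to chromatin. Among bound genes without a termination defect, the paper holds that the association with some could be spurious.

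The promoters of both genes are shown so that the peak starts can be placed beside them. A relation between promoter elements and peak starts was not tested. Sequences are from RefSeq, build ASM294v3, at the gene bounds of that annotation (the reference annotation), which names both genes. The stretches run from base -40 to base -11 before the reference gene start, at III:1838375-1838404 for nmt1 and II:3940486-3940515 for thi2, both on the plus strand, with the TATA motif TATAAA in capitals:
nmt1: ttgaagataTATAAAggaagaggaatcctg
thi2: ttttgataTATAAAgggggctcatagcatg
The motif lay at bases -31 to -26 in nmt1 and at bases -32 to -27 in thi2. Searched on both strands of the 250 bases before the gene start, TATAAA was present in 44.4% of 5112 protein-coding promoters. In the last 60 bases and on the sense strand, it was present in 6.63% of them. In thi2 a further copy stood at bases -198 to -193, and an antisense copy at bases -202 to -197 overlapped it in part.

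The stretches around the gene starts are shown because the 2 genes share their letters there. They cover 15 bases on each side of the start, III:1838400-1838429 for nmt1 and II:3940511-3940540 for thi2, with the shared letters in capitals:
nmt1: tcctggcatatCATCAATTGAAtaagttga
thi2: gcatgtttcagCATCAATTGAAcattccac
Between 60 bases before and 20 bases after the start, the shared runs of 9 or more letters were CATCAATTGAA, which began 4 bases before the start in both genes, and GATATATAAAGG, which holds the TATA motif. On the sense strand, each of these 2 runs occurred in 2 of 5112 protein-coding genes in that window, namely nmt1 and thi2. The runs were found after the sequences had been seen, and a shared run of letters is not evidence that a factor binds there.

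**Figure D1:**
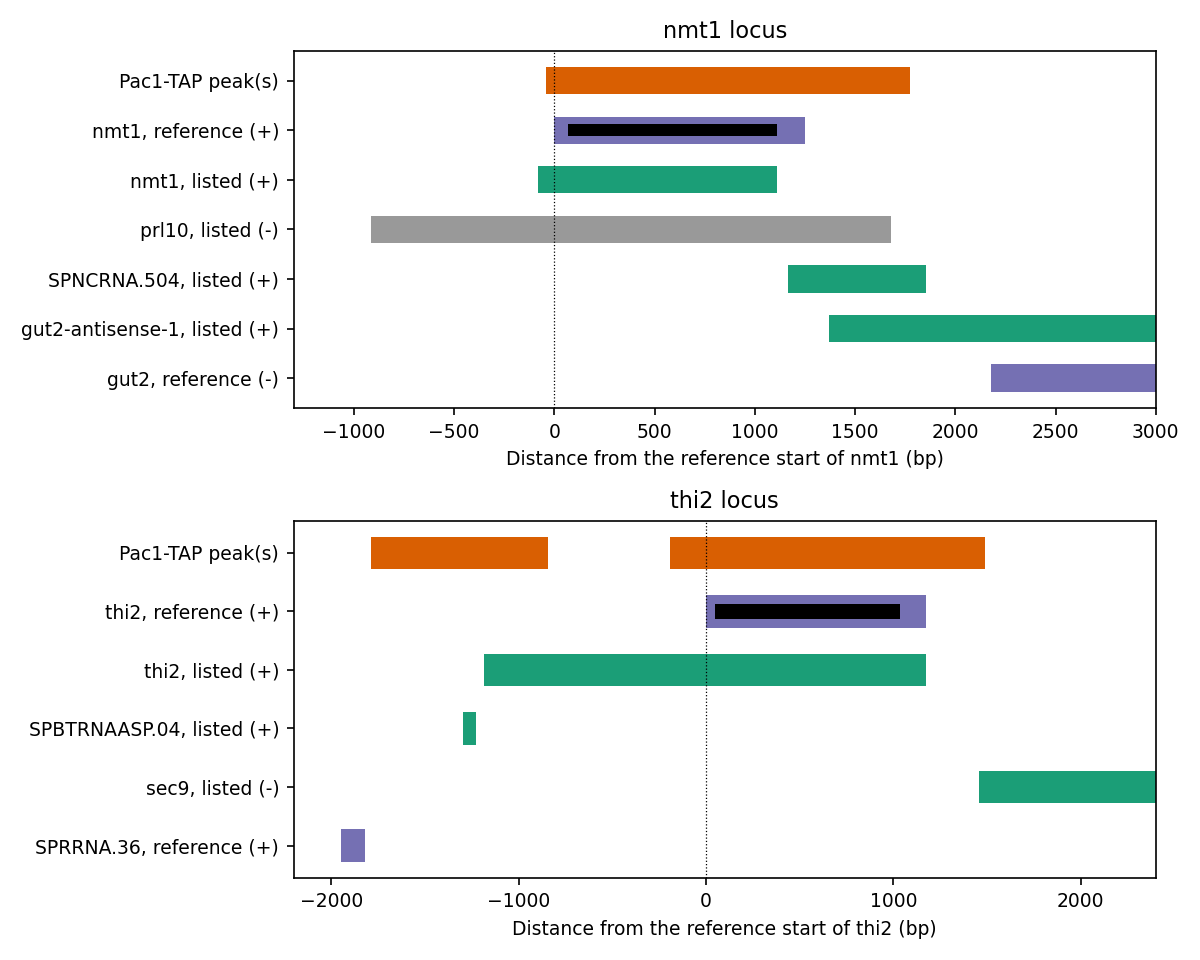
Maps of the nmt1 and thi2 loci, with the distance from the reference gene start in bp on the x axis and 1 bar per peak, listed gene or reference gene (strand in brackets, coding region as a black bar, grey for the antisense prl10). The nmt1 peak and the downstream thi2 peak each span the whole reference gene, while the upstream thi2 peak of 947 bp ends 843 bases before the reference start of thi2.

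At nmt1 (SPCC1223.02, 4-amino-5-hydroxymethyl-2-methylpyrimidine phosphate synthase), a single peak lay at III:1838372-1840186, with a width of 1815 bp and a combined p-value listed as 0. The list places nmt1 at III:1838335-1839525 on the plus strand, so the peak began 37 bases inside the listed gene and covered 1154 of its 1191 bases (96.9%). In the reference annotation, nmt1 is 1250 bp long, its start lies 80 bp further downstream and its end 139 bp further downstream. By those bounds the peak covered 100% of the gene and began 43 bp before the start, 12 bp before the first base of the TATA motif shown above. The coding region of 1041 bp was covered whole in either case.

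The nmt1 peak continued past the 3′ end of the gene. It reached 661 bp beyond the listed end, which is the stop codon, and 522 bp beyond the reference end. Its centre lay 349 bp on the 3′ side of the listed midpoint and 239.5 bp on the 3′ side of the reference midpoint. The listed genes that hold a peak centre give the scale. Of 63 other protein-coding genes of this kind, 62 had a peak that reached less far past the listed 3′ end (median 199 bp, quartiles -167.5 and 272 bp, where a negative value means that the peak stopped inside the gene). The listed end of nmt1 lies 139 bp before its reference end, whereas most listed protein-coding genes end at the same base in both. This lengthens the reach at nmt1 by the listed bounds. By the reference bounds, 55 of 56 genes had a peak that reached less far past the 3′ end (median 197.5 bp).

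The nmt1 peak was shared with 3 non-coding genes, and the extension past nmt1 therefore cannot be ascribed to nmt1 alone. prl10 (SPNCRNA.1234, an antisense RNA at III:1837499-1840092) runs on the minus strand across the whole of nmt1, and the peak overlapped 1721 bp of it (66.3%). SPNCRNA.504, on the plus strand at III:1839578-1840266, begins past the listed end of nmt1. The peak covered 609 bp of it (88.4%) and stopped 80 bp before its 3′ end. gut2-antisense-1 (SPNCRNA.1235, III:1839787-1844115, plus strand) was overlapped over 400 bp at its 5′ end, 9.24% of its length. The next protein-coding gene, gut2, encodes a mitochondrial glycerol-3-phosphate dehydrogenase and lies 407 bases past the end of the peak in the reference annotation, on the minus strand, so that its 3′ end faces nmt1. Of these 4 listed genes, nmt1 and prl10 held the centre of the peak. ChIP reads carry no transcript strand, so nmt1 and prl10 cannot be told apart as the source of the signal. Most peaks had fewer genes: the median was 2 genes over 87 peaks with a gene, and 7 peaks had 4 or more.

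At thi2 (SPBC26H8.01, thiazole biosynthetic enzyme), the list gives 2 peaks. The downstream one, at II:3940335-3942014, was 1680 bp wide with a combined p-value listed as 0. The upstream one, at II:3938736-3939682, was 947 bp wide with a combined p-value of 7.67e-278. The 88 peaks of the list had a median width of 1378.5 bp, the narrowest being 545 bp and the widest 5433 bp. From the widest down, the nmt1 peak ranked 35, the downstream thi2 peak 39 and the upstream thi2 peak 62. The p-value was given as 0 at 34 peaks, and 37 peaks had a smaller value than the upstream thi2 peak.

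The listed bounds of thi2 (II:3939342-3941699, plus strand) make it a gene of 2358 bp. The upstream peak took in the first 341 bases of it, 14.5% of its length, and continued 606 bp beyond its 5′ end. The downstream peak began at base 994, counted from 1 at the listed start, covered 1365 bases (57.9%) and continued 315 bp beyond the 3′ end. Together the peaks covered 72.3% of the listed gene and left a gap of 652 bases between them. The part without a peak was thus internal to the listed gene, nearer to its 5′ end.

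This reading depended on where thi2 begins. In the reference annotation thi2 is a gene of 1174 bp with an identical end and a start 1184 bp further downstream, 48 bp before its coding region of 987 bp. By these bounds the downstream peak covered 100% of thi2. It began 191 bp before the gene start, 159 bp before the first base of the TATA motif nearest to that start, and its centre was 62 bp from the midpoint of the gene. The upstream peak then overlapped no base of thi2 and ended 843 bases before it. The whole gap of 652 bases lay before the gene start as well. Of the 1184 bases that separate the starts in the list and the reference, 532 were under a peak.

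Such long listed 5′ ends were not particular to thi2. Among the 95 listed protein-coding genes with a reference entry, the listed start lay a median of 37 bp before the reference start, 4 genes had identical starts, and 9 genes had a larger shift than thi2.

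**Figure D2:**
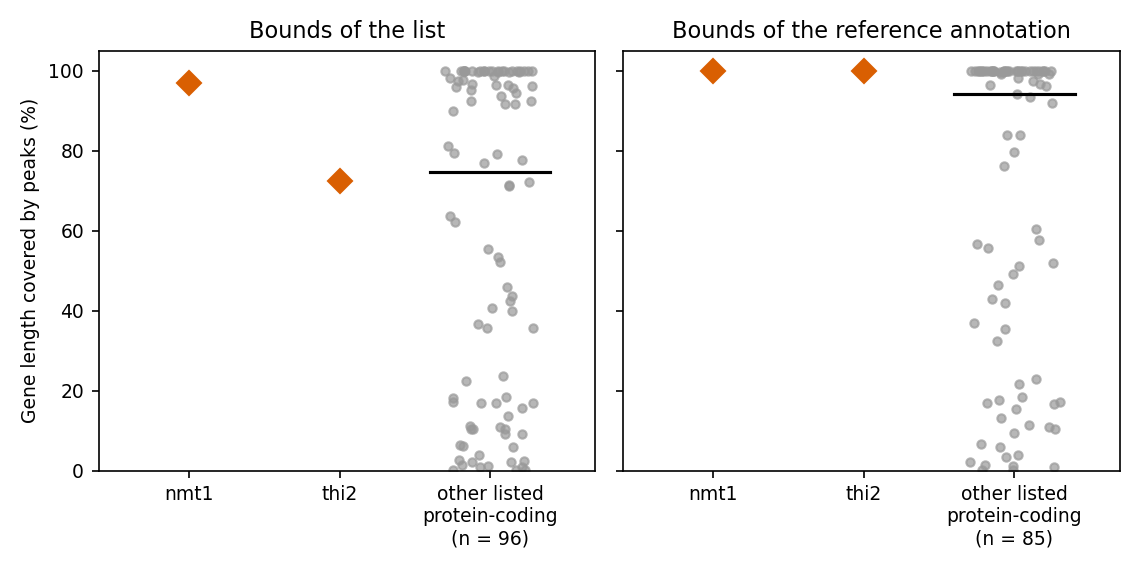
Percent of the gene length covered by peaks (y axis) for nmt1, thi2 and the other listed protein-coding genes, by the bounds of the list (left) and of the reference annotation (right), with 1 point per gene and the median of the other genes as a line. nmt1 stood at 96.9% and thi2 at 72.3% by the listed bounds, and both at 100% by the reference bounds.

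Compared with the other listed protein-coding genes, nmt1 was covered to a larger share than 67 of 96 genes by the listed bounds and thi2 to a larger share than 48 of 96 (median 74.6%). By the reference bounds both were covered whole, as were 30 of the 85 other genes that a peak still overlapped (35.3%). Whole coverage was therefore common in the list, and the position of thi2 in it changed with the annotation.

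The upstream thi2 peak was shared with an aspartic acid tRNA gene, SPBTRNAASP.04 (II:3939227-3939297, plus strand), which it covered whole. The tRNA gene ends 44 bases before the listed start of thi2 and 1228 bases before the reference start. The centre of the peak lay 53 bp upstream of the midpoint of the tRNA gene, in neither of the 2 genes listed for it. The tRNA gene has the same bounds in the list and in the reference annotation. It is shown in full, since it is the gene that the peak still holds by the reference bounds, with the letters of the internal B box (motif GTTCGANNC, an RNA polymerase III promoter element) in capitals:
SPBTRNAASP.04: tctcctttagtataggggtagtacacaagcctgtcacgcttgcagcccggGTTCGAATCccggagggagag
The motif began at base 51 of 71 and was present in 76.6% of 171 tRNA genes, searched on the transcribed strand. A peak overlapped 3 of the 171 tRNA genes. The same 71 bases are found at 7 tRNA genes of the reference, and this one was the single copy with a peak. None of the 22 windows of 50 bases, the read length, within this tRNA gene is unique in the 3 chromosomes, so reads inside it cannot be assigned to this copy.

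A further RNA polymerase III gene, the 5S rRNA gene SPRRNA.36, ends 28 bases before the start of the upstream thi2 peak in the reference annotation and was not touched by it. No peak overlapped any of the 36 5S rRNA genes of the reference. Of the windows of 50 bases in SPRRNA.36, 4 of 81 were unique. In nmt1 and thi2 all windows of 50 bases were unique, 1201 of 1201 and 1125 of 1125 in the same order, so that repeated sequence was not a limit within the 2 members themselves.

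The downstream thi2 peak was shared with sec9 (SPBC26H8.02c, II:3941984-3944032, minus strand), which encodes a t-SNARE of the SNAP-25 family for membrane fusion. The overlap was 31 bp, 1.51% of sec9, at its 3′ end. sec9 and thi2 converge, and the peak crossed the space between their 3′ ends. Past the 3′ end of thi2 the peak reached 315 bp, further than at 54 of the 63 other protein-coding genes by the listed bounds and at 48 of 56 by the reference bounds.

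The 652 bases between the thi2 peaks made them one of the closest pairs in the list. Among 85 pairs of neighbouring peaks on a chromosome, the gap ranked 3 from the smallest, against a median gap of 99716 bases. thi2 was 1 of 5 genes listed at more than 1 peak. The gap was 373 bases at SPBC8E4.02c, 956 bases at both thi9 and SPNCRNA.743, which share their 2 peaks, and 4363 bases at ape2, an aminopeptidase gene. By the reference bounds thi2, thi9 and ape2 were each overlapped by 1 peak, SPNCRNA.743 was still overlapped by 2, and SPBC8E4.02c was not matched in the reference.

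Further genes tied to thiamine were then examined in a list of 9, made up of nmt1, thi2 and 7 other genes. The 7 were genes for later synthesis steps, thiamine uptake and regulation, with pho4 and bsu1 entered as thiamine-repressed genes. A peak was listed at 5 of the 9 genes. In the reference annotation a peak overlapped 90 of 5113 protein-coding genes, 1.76%. Apart from nmt1 and thi2, which had been chosen from the list, 3 of the other 7 genes had a peak. These were thi9 (SPAC9.10), the thiamine transporter, bsu1 (SPAC17A2.01), a vitamin B6 transporter, and tnr3 (SPAC6F12.05c), the kinase that makes thiamine diphosphate. The peak at tnr3 also held a snoRNA gene and cannot be ascribed to tnr3. All 9 genes were chosen with earlier results of these data known, so the counts are a description and were not tested. No peak lay at thi4, which encodes the enzyme that joins the pyrimidine and thiazole parts, at pho4, the thiamine-repressible acid phosphatase, or at the transcription factor genes thi1 and thi5. The nearest peaks were 18324, 18357, 23086 and 85336 bases away from thi4, pho4, thi1 and thi5 in that order.

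**Figure D3:**
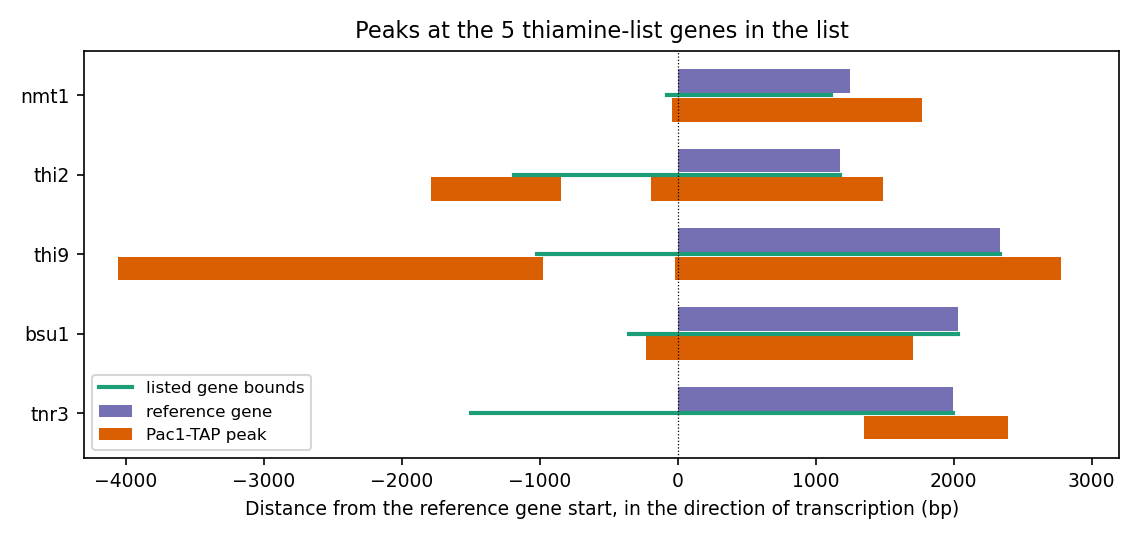
Peaks (orange), reference gene (purple) and listed gene bounds (green line) at the 5 genes of the thiamine list with a listed peak, with the distance from the reference gene start in the direction of transcription in bp on the x axis. At nmt1, thi2 and thi9 a peak spans 100% of the reference gene, at bsu1 83.9% and at tnr3 32.4%, and the long upstream peak of thi9 covers its neighbour met26.

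The peak over thi9, like the nmt1 peak and the downstream thi2 peak, spanned the whole reference gene and passed both of its ends. Whole coverage was not particular to these genes. Besides nmt1 and thi2, a peak overlapped 85 listed protein-coding genes by the reference bounds, and 30 of them, thi9 included, were covered whole. The values for the thi9 peak follow. This peak lay at I:1482398-1485196 (2799 bp, combined p-value 1.22e-306) and began 21 bp before the reference start. It covered 100% of the reference gene and reached 444 bp beyond its 3′ end, across a methionine tRNA gene (SPATRNAMET.02). The second listed thi9 peak (I:1478361-1481441, combined p-value 2.17e-237) touched the listed gene over 41 bp, 1.22% of its length. That peak covered 100% of the neighbouring met26, which encodes homocysteine methyltransferase. The listed start of thi9 lay 1018 bp before the reference start, and by the reference bounds this peak did not reach thi9. Both thiamine genes with 2 listed peaks, thi2 and thi9, therefore owed their second peak to the listed 5′ end.

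The peaks at bsu1 and tnr3 looked different. At bsu1 the peak (I:3549804-3551740, 1937 bp, combined p-value 1.21e-180) began 230 bp before the reference start and had a reach past the 3′ end of -327 bp, stopping inside the gene. bsu1 was the sole gene under it. At tnr3 the peak (I:1316586-1317627, 1042 bp, p-value listed as 0) covered 647 bp, 32.4% of the reference gene, at its 3′ end. It also held all of snR88, a snoRNA gene, and 58 bp of tvp15, so that this peak cannot be ascribed to tnr3.

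**Figure D4:**
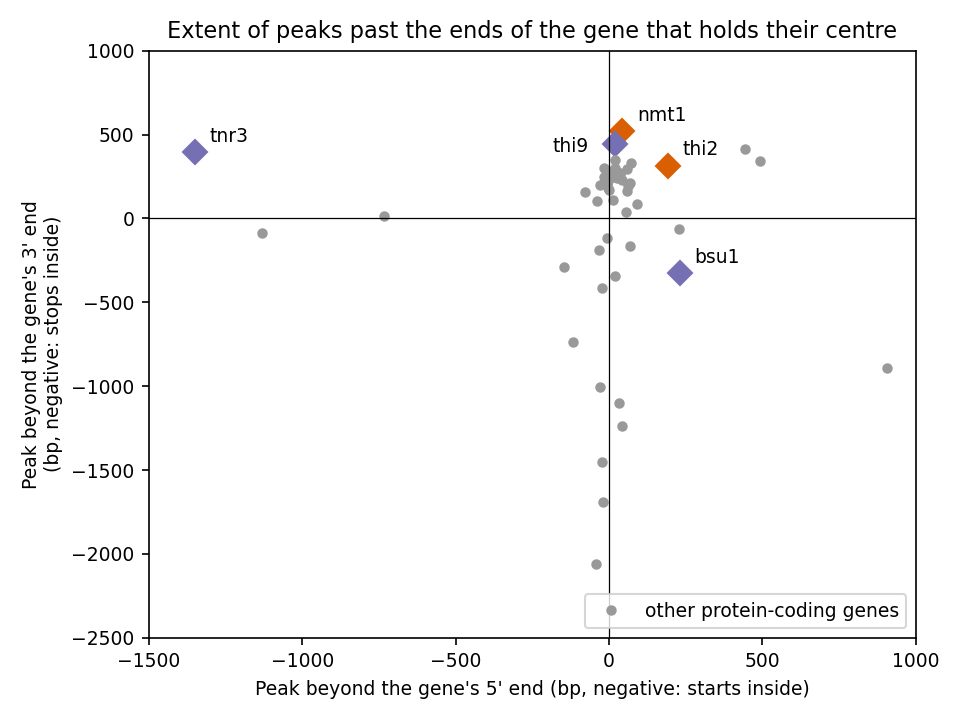
Distance in bp by which a peak reaches past the 5′ end (x axis) and the 3′ end (y axis) of the reference gene that holds its centre, with negative values where the peak starts or stops inside the gene, for nmt1 and thi2 (orange), other genes of the thiamine list (purple) and other protein-coding genes (grey). nmt1 lies at 43 and 522 bp and thi2 at 191 and 315 bp, and 4 of 53 other genes fall outside the axes.

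The TATA motif stood near the start of some listed thiamine genes with a peak and of some without, and a relation to peaks was not tested. In the last 60 bases before the start and on the sense strand, TATAAA was found in 4 of the 9 genes. The share over all 5112 protein-coding promoters was 6.63%. The 4 genes were nmt1 and thi2, both chosen for having a peak, and thi4 and pho4, neither with a peak. thi9 held a copy at bases -215 to -210, further from its start, and the 250 bases before bsu1 and tnr3 held none on either strand. Near the 3′ end, the poly(A) signal AATAAA, searched on the sense strand, stood 9 bases before the last base of thi2 and again 185 bases past it. In nmt1 it was not found between the stop codon and 300 bases past the gene end. Over all protein-coding genes, 16.4% of 5113 held AATAAA in their last 50 bases. A missing match says that these letters are not in this window, and other forms of the signal were not searched.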

How the data were processed

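Pac1-TAP ChIP-seq peaks were taken from 1 table that the authors deposited. The authors used Trimmomatic for trimming and HISAT2 for mapping to ASM294v2, called peaks with MACS2 in each immunoprecipitate against its input with duplicates kept, and combined both replicates with MSPC. The table holds, as deposited by the authors, 1 combined p-value per peak, the bounds of the peak and those of each overlapping gene. There are no values per library, so depth is unknown, the p-values carry no replicate spread, no test between groups was run, and peak widths may depend on depth. The share of cells with Pac1 bound and the amount of Pac1 bound per cell cannot be told apart. The 4 RNAPII libraries were not analysed here.

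Overlaps (minimum 1 bp), gaps and shares were computed in Python 3.11.15 with pandas 2.3.3, checked on simulated intervals. Coordinates in the text are those of the table, except where ASM294v3 is named. Whether its peak starts count from 0 or 1 is not given in the sources used here. They were read as counting from 1, and distances from a peak start would differ by 1 base otherwise. Of 166 listed genes, 153 matched the RefSeq ASM294v3 annotation by name and place, 53 with identical bounds and 144 with an identical start or end. Local folding used RNALfold 2.7.2 with a span of 150 nt. Genes named were nmt1, thi2, genes under their peaks, the thiamine list, genes with more than 1 peak and reference neighbours. met26, tvp15, snR88 and SPATRNAMET.02 were named after their values were seen. The members, lists and descriptions were chosen with earlier results of these data known.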

Additional observations from a re-analysis of the deposited data

How the results depend on the processing

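With the reference annotation bounds, the covered share became 100% for thi2 and 100% for nmt1, because that annotation gives other gene bounds. With peaks listed at a p-value of 0, the share of thi2 was 57.9% and 3 thiamine genes had a peak, since the upstream thi2 peak and those of thi9 and bsu1 drop out, and no gap can then be given. When a gene had to hold the peak centre, 1 further gene (prl10) shared a peak with the members, against 5 in the list. The count of genes sharing a peak with the members was 4 with peaks listed at a p-value of 0 (without SPBTRNAASP.04). It was also 4 with an overlap of at least 50 bp (without sec9). By the reference bounds, 4 of the 5 genes still lay under the listed peaks of the members (without SPNCRNA.504, which has no entry). These 4 include SPBTRNAASP.04, although its peak overlaps no base of thi2 by those bounds. At 1e-200 or below, 4 thiamine genes had a peak (without bsu1, whose combined p-value is larger). Counting peak starts from 0 gave a share of 72.3% for thi2, 96.8% for nmt1 and a gap of 653 bases. No paired analysis was possible because the peaks were merged over both replicates and hold nothing measured in a single library. Leaving out a replicate was not possible for the same reason.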

Other observations

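The transcripts of both genes were scanned for local RNA structure, since Pac1 acts on hairpins. On the sense strand of the reference genes, the most stable local structure had an energy of -47.4 kcal/mol in nmt1 (138 nt, 44 base pairs) and of -45.8 kcal/mol in thi2 (152 nt, 53 base pairs). Both structures were branched, so their base pairs are summed over several stems and do not form a single long hairpin. Whether any stem meets the length that Pac1 needs was not examined. Both structures lay within the coding region and therefore under a peak. Among protein-coding genes of similar length (between 0.8 times its length and its length divided by 0.8), 6.34% of 1277 genes had a lower energy than nmt1 (median -38.9 kcal/mol) and 10.3% of 1157 genes a lower energy than thi2 (median -38.6 kcal/mol). The GC content of nmt1 was 43.4% and that of thi2 41.6%, against a median of 36.8% over 5113 protein-coding genes, and its part in the folding energies was not tested. Neither structure was compared with cleavage data.

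The reference annotation also holds long non-coding RNAs that the list does not name, on the strand opposite to thi2. SPNCRNA.6357 overlapped the downstream thi2 peak over 1083 bp, 88.0% of its length. SPNCRNA.6356 overlapped the upstream peak over 227 bp, 41.7% of its length. The strand of the bound transcript is unknown at each of the 3 peaks.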
